A study of Drosophila melanogaster with 21 samples.

Results

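The dosage compensation genes of Drosophila melanogaster were followed in male brains that carried or lacked the microRNA miR-34. Members were the rows of the count table whose symbol was one of 8 names: the noncoding RNAs lncRNA:roX1 and lncRNA:roX2, the complex genes msl-1, msl-2, msl-3, mle and mof, and the DNA-binding factor Clamp. All 8 were found among 17612 genes. Set 1 held 20d miR-34 mutant, 20d control, 3d miR-34 mutant and 3d control brains, and set 2, an independent experiment, followed controls over 3 ages (3d, 20d and 50d). Each group had 3 biological replicates of 20 pooled brains, giving 21 libraries. Controls carried the label 5905 and mutants the label delta miR-34. The paper's list of genotypes gives both the same allele of the white gene, and every cell of a fly has the same genotype. Only males were used, so the same genes in females, where the complex does not form, were not measured. The brains were pooled whole, so fewer cells of a type and less RNA per cell cannot be told apart.

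Fly males have a single X chromosome, and the male-specific lethal (MSL) complex raises its transcription to the level of the paired autosomes. MSL-2, made in males only, assembles with MSL-1, MSL-3, the helicase MLE and the histone acetyltransferase MOF on a roX RNA scaffold, and CLAMP recruits the complex to GA-rich sites on the X. The roX1 and roX2 RNAs differ in length and sequence but can stand in for each other in male viability. Both are transcribed from the X itself, and roX1 was first described as a male-specific RNA of the adult fly brain.

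Library totals ran from 17932132 to 23109013 counts in set 1 and from 30890607 to 43713430 in set 2. Replicates differed by more than sampling noise in every group. The table has no row for mir-34, so its loss was not measured directly. The transcript that hosts it, lncRNA:CR43459, had 15243 to 23664 counts in the libraries labelled mutant and 182 to 435 in the set 1 controls, which separated the genotypes as labelled but with the higher counts in mutants. Marker sums, in CPM (counts scaled to a common library size), moved with the groups. The sum of 4 neuronal markers was 6152 to 6306 CPM in 3d mutants, against 4231 to 4707 CPM in 3d controls. Of the yolk protein genes, which mark fat body and females, Yp1 had at most 11.1 CPM and Yp2 at most 5.25 CPM in any library. The third, Yp3, reached 62 CPM in a 3d control of set 1. The fat body genes apolpp and Lsp2 reached 4563 CPM (50d, set 2) and 1119 CPM (3d, set 2).

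The noncoding members stood above the protein members in abundance, and only lncRNA:roX1 did so by far in every library. Levels of different genes are compared here as CPM per kilobase of exon, averaged over the libraries of a set. lncRNA:roX1 had a level of 735 CPM per kb in set 1, rank 55 of 9934 tested genes with a known length, and 582 CPM per kb in set 2, rank 122 of 10495. lncRNA:roX2 had 81.5 CPM per kb in set 1 and 70.4 in set 2. The helicase gene mle, at 28.5 and 27.1 CPM per kb in set 1 and set 2, and Clamp, at 25.3 and 23.0, came next, followed by msl-2 at 17.5 and 17.8. The chromodomain gene msl-3 had 9.19 and 8.04 CPM per kb, msl-1 8.01 and 7.20, and the acetyltransferase gene mof was lowest at 3.47 and 3.71. The order was the same in both sets. The library ranges of mle and Clamp overlapped, as did those of msl-3 and msl-1, while the ranges of all other neighbours were separate. Within single libraries mle was above Clamp in 20 of 21, and msl-3 was above msl-1 in 16 of 21. All 8 members passed the filter on low counts in both sets, and the smallest count of any member in any library was 126, for mof.

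In the Ensembl annotation of build BDGP6.54, lncRNA:roX1 (FBgn0019661) lies on the minus strand of X from 3857230 to 3862697, and part of its exons overlaps the gene ec on the other strand. ec had 29 to 146 counts in the 21 libraries, against 59105 to 146306 for lncRNA:roX1. lncRNA:roX2 (FBgn0019660) lies on the plus strand of X from 11579065 to 11580432 and overlaps no other exon. Of the protein members, mof (FBgn0014340, X, 5873840 to 5876853) is X-linked. The others are autosomal: msl-1 (FBgn0005617, 2L, 18683720 to 18688800), msl-2 (FBgn0005616, 2L, 3462218 to 3466112), Clamp (FBgn0032979, 2L, 22165720 to 22169143), mle (FBgn0002774, 2R, 5974857 to 5980778) and msl-3 (FBgn0002775, 3L, 7123213 to 7125533). Exons of Clamp and msl-3 overlap a gene on the other strand, and exons of msl-2 and mof overlap short annotated features. The strand setting of the counting is not given in the sources used here, so the counts of these 4 and of lncRNA:roX1 carry that uncertainty.

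Calls among the members were read against the share of all tested genes that passed the same test, an adjusted p under 0.05. In 20d mutants against 20d controls, 2 members were higher and 1 was lower. Of all genes, 32.1% were called there, 16.6% higher and 15.4% lower. In 3d mutants against 3d controls, 2 of the 8 were lower, where 31.4% of all genes were called, 16.5% higher and 15.0% lower. The age by genotype interaction, which asks whether the difference between 20d and 3d brains was itself different in mutants and controls, called 2 members in the positive and 1 in the negative direction. The background was 18.6%, with 8.29% positive and 10.3% negative.

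Between ages, 2 members were higher and 2 were lower in 20d than in 3d controls of set 1, where 24.6% of all genes were called, 11.3% higher and 13.3% lower. In mutants, 4 were higher and 1 was lower at 20d than at 3d, with 46.0% of all genes called, 22.8% higher and 23.2% lower. In set 2, 2 members were lower at 20d than at 3d, and 39.2% of genes were called, 19.3% higher and 19.9% lower. Between 50d and 20d, 1 member was lower, with a background of 9.72%, 5.51% higher and 4.21% lower. Between 50d and 3d, 2 were higher and 2 lower, with 50.8% called, 25.9% higher and 24.9% lower. The members' shares lay above those of all genes in some comparisons and below them in others.

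**Figure D1:**
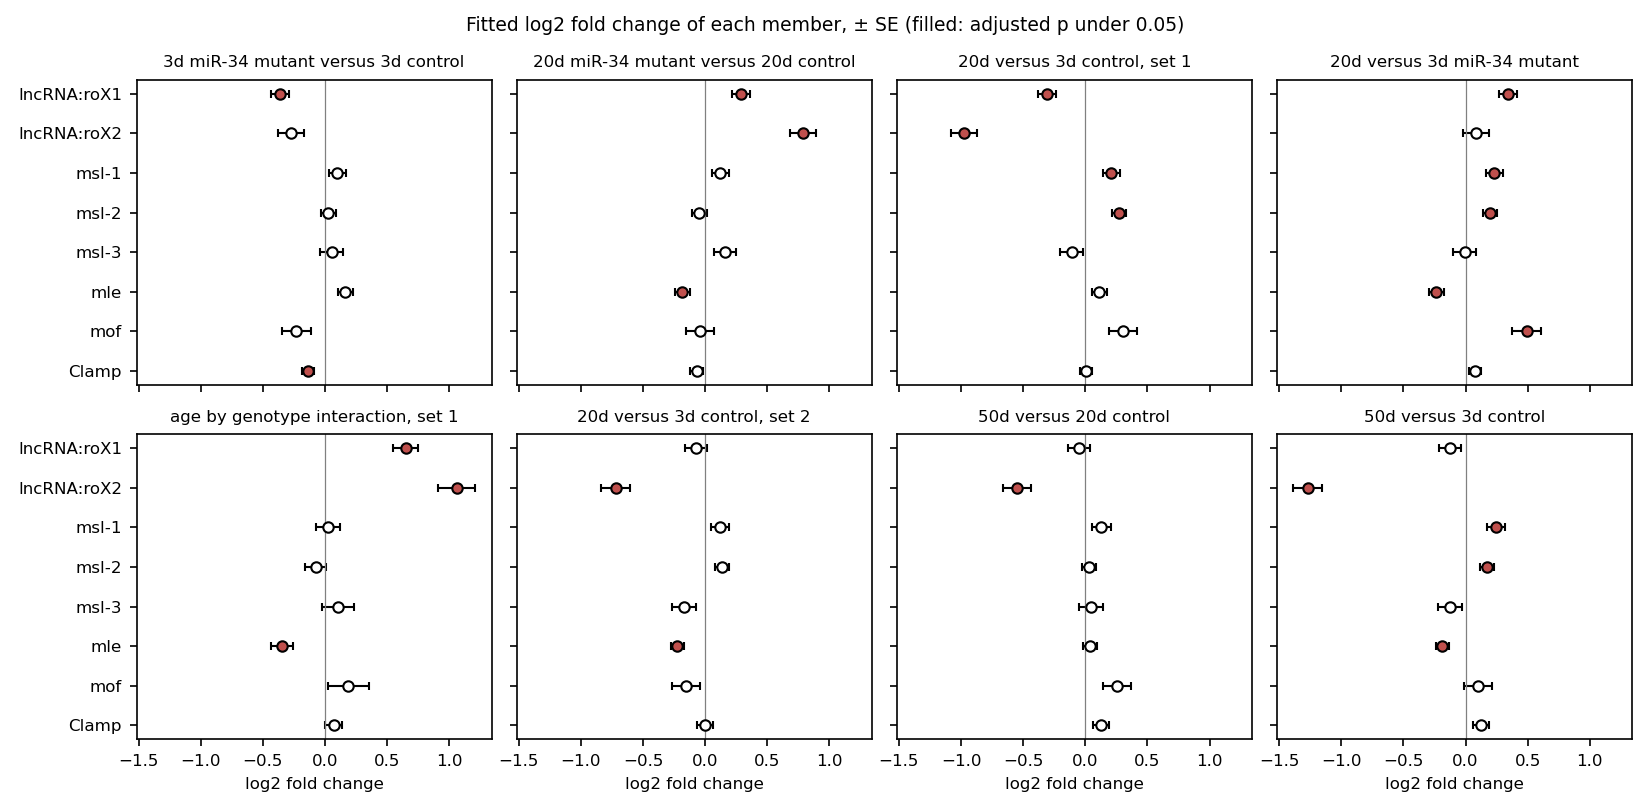
Fitted log2 fold change (x axis) of each of the 8 members (y axis) in each of the 8 comparisons, with bars of 1 standard error (SE); filled points had an adjusted p under 0.05. lncRNA:roX2 lies furthest from 0 in 6 of the 8 panels, and the protein members stay within 0.50 of 0.

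In controls lncRNA:roX2 was the member with the largest changes with age, and it fell in both experiments. In set 1 its level was 79.5, 64.9 and 67.7 CPM in the 20d controls, against 162, 131 and 125 CPM in the 3d controls. Each 20d library was below every 3d library. This was a log2 fold change of -0.98 with a standard error (SE) of 0.11 (adjusted p = 5.2e-05). Set 2 libraries had 167, 128 and 133 CPM at 3d, 95.7, 81.7 and 83.0 CPM at 20d and 65.4, 60.2 and 52.3 CPM at 50d. The 3 ages did not overlap, and the level at 50d was the lowest. Against 3d the log2 fold change was -0.72 at 20d (SE 0.11, adjusted p = 0.00070) and -1.27 at 50d (SE 0.12, adjusted p = 8.3e-06). Between 50d and 20d it was -0.55 (SE 0.11, adjusted p = 0.015). The step between 20d and 50d was no longer called without 20d replicate 1 (adjusted p = 0.060) or without 50d replicate 3 (adjusted p = 0.056).

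In miR-34 mutants lncRNA:roX2 showed no such fall. It had 134, 120 and 111 CPM in 20d mutants, against 118, 118 and 108 CPM in 3d mutants, and the groups overlapped. The log2 fold change of 0.09 (SE 0.10, adjusted p = 0.53) was smaller than its error. At 20d the mutants stood above the controls in all libraries, with a mean of 122 ± 11.5 CPM, against 70.7 ± 7.77 CPM in 20d controls (SD, n = 3). Their log2 fold change was 0.78 (SE 0.11, adjusted p = 0.00011). The 3d mutants had 115 ± 5.97 CPM, against 139 ± 19.8 CPM in 3d controls. This difference of -0.28 in log2 (SE 0.10) did not pass (adjusted p = 0.061), although no mutant library reached the lowest control. It passed without 3d control replicate 3 (-0.35, adjusted p = 0.033), when only these 2 groups were fitted (adjusted p = 0.041) and in the fit blocked by replicate (adjusted p = 0.0078), but shrank to -0.16 without 3d control replicate 1 (adjusted p = 0.27). The interaction was 1.06 on the log2 scale (SE 0.15, adjusted p = 0.00071).

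**Figure D2:**
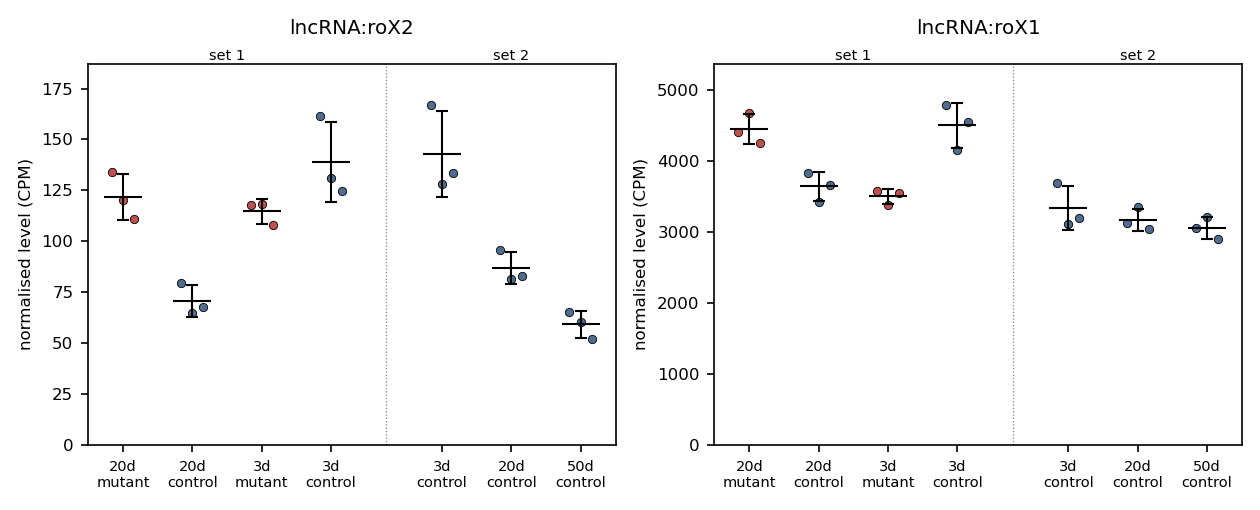
Normalised level in CPM (y axis, from 0) of lncRNA:roX2 and lncRNA:roX1 in each library (points), by group (x axis), with the group mean and SD (bars); mutants are red and controls blue, and the dotted line parts the sets, which were normalised separately. lncRNA:roX2 is lower in the older controls of both sets, and at 20d its 3 mutant libraries, 111 to 134 CPM, lie above its 3 control libraries, 64.9 to 79.5 CPM.

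The summed level of 4 glial markers was also lower in older brains, through Gs2 and alrm. The sum was 2448 to 2507 CPM in 20d controls, against 3013 to 3443 CPM in 3d controls. Set 2 brains had 3428 to 3556 CPM of these markers at 3d, 2333 to 2416 CPM at 20d and 2127 to 2330 CPM at 50d. In mutants it was 2080 to 2162 CPM at 20d, against 3561 to 3697 CPM at 3d, between which lncRNA:roX2 differed by 0.09 in log2. Gs2, the glutamine synthetase gene that makes up most of the sum, and the astrocyte gene alrm were lower at 20d than at 3d. This held in mutants and in the controls of both sets, without overlap. In set 2 the gap of alrm was narrow, with its lowest 3d and highest 20d library both at 268 CPM. Its 20d and 50d ranges, 250 to 268 CPM and 230 to 261 CPM, overlapped. repo, the glial transcription factor gene, went the other way, with 138 to 145 CPM in 20d mutants, against 103 to 108 CPM in 3d mutants, and with 103 to 105, 122 to 124 and 129 to 134 CPM at 3d, 20d and 50d in set 2. In set 1 controls its ages overlapped. The barrier glia gene moody was lower at 20d in set 2 and higher at 50d, at 110 to 116 CPM, against 103 to 106 CPM at 3d, and overlapped between ages in both genotypes of set 1.

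Marker genes also separated the genotypes at 20d, where lncRNA:roX2 differed. Of the 4 glial markers, alrm had 109 to 117 CPM in 20d mutants, against 285 to 317 CPM in 20d controls, and Gs2 was lower too, while repo and moody were higher in mutants, none with overlap. The sum of 5 photoreceptor markers overlapped, at 13403 to 30912 CPM in 20d mutants, against 18436 to 31495 CPM in 20d controls. Within it the rhodopsin genes Rh6, at 16.4 to 35.1 CPM in 20d mutants, against 367 to 714 CPM in 20d controls, and Rh4, at 270 to 548 CPM in mutants, against 816 to 1501 CPM in controls, were lower in mutants. Both were also lower in 3d mutants than in 3d controls, where the difference of lncRNA:roX2 did not pass. The other markers of this list differed from them. Rh3 overlapped between genotypes at both ages, and ninaE and trp overlapped at 20d. In 3d mutants trp was higher, at 2591 to 3460 CPM, against 1582 to 2012 CPM in 3d controls. There ninaE was lower, at 13022 to 18594 CPM in mutants, against 19289 to 27193 CPM in controls. Over the 21 libraries the photoreceptor gene ninaE alone had 11618 to 40717 CPM. In set 2 the photoreceptor sum was 30185 to 32642 CPM at 3d, 38442 to 48302 CPM at 20d and 26013 to 36556 CPM at 50d. The part of these marker genes in the level of lncRNA:roX2 was not tested.

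lncRNA:roX1, the more abundant scaffold RNA, had opposite differences between the genotypes at the 2 ages. It had 4404, 4667 and 4248 CPM in 20d mutants, against 3832, 3422 and 3657 CPM in 20d controls. At 3d it had 3575, 3382 and 3542 CPM in mutants, against 4789, 4154 and 4546 CPM in controls. The genotypes did not overlap at either age: mutants were the higher group at 20d and the lower at 3d. Mutants over controls, the log2 fold change at 20d was 0.29 (adjusted p = 0.0073) and at 3d -0.36 (adjusted p = 0.0018), each with an SE of 0.07. The interaction was 0.65 (SE 0.10, adjusted p = 0.00098). Neuronal marker sums, higher in 3d mutants than in 3d controls as given above, overlapped at 20d. They were 4287 to 4404 CPM in 20d mutants and 4020 to 4416 CPM in 20d controls. Of the single markers, elav, nSyb and Syt1 overlapped there, and brp did not, with 923 to 962 CPM in mutants and 718 to 882 CPM in controls. The part of the neuronal markers in these differences was not tested.

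With age, lncRNA:roX1 rose in mutants by 0.34 in log2 (SE 0.07, adjusted p = 0.0015). In set 1 controls it fell by 0.31 on the log2 scale (SE 0.07, adjusted p = 0.0079). The set 2 means were 3332 ± 307, 3168 ± 159 and 3051 ± 159 CPM at 3d, 20d and 50d (SD, n = 3), and neighbouring ages overlapped. The log2 fold change of -0.07 at 20d against 3d did not pass (SE 0.09, adjusted p = 0.55). The difference between the age effects of the 2 sets was 0.23 (SE 0.11, adjusted p = 0.18), which does not separate them. Scaling by library totals alone, which moved the median gene by 0.11 to 0.15 in log2 in the comparisons of 20d or 50d with 3d, left the set 1 fall of lncRNA:roX1 at 0.18 and uncalled (adjusted p = 0.093), while its other calls and those of lncRNA:roX2 held.

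The balance of the 2 scaffold RNAs shifted with age. The ratio of lncRNA:roX1 counts to lncRNA:roX2 counts within a library needs no scaling. At 20d it averaged 36.6 ± 3.28 in mutants, against 51.6 ± 3.07 in controls (SD, n = 3), and at 3d 30.6 ± 2.16 in mutants, against 32.6 ± 3.49 in controls. The 3d, 20d and 50d brains of set 2 had ratios of 23.4 ± 1.21, 36.7 ± 4.10 and 51.8 ± 4.52. Ranges did not overlap between ages in either genotype, nor between genotypes at 20d, and each of these differences had an exact two-sided permutation p of 0.1, the smallest that 3 libraries against 3 allow. In mutants the separation of the ages was narrow, with the lowest 20d and the highest 3d library both at 32.9. At 3d the genotypes overlapped (exact permutation p = 0.6).

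The median of X-linked transcripts moved by at most 0.047 in log2 against autosomal ones between any groups compared. For each library the median deviation of 1662 X-linked genes in set 1, or 1747 in set 2, from their mean over the set was set against that of 8150 or 8620 genes on the large autosomal arms. This difference averaged 0.0071 ± 0.0039 in 20d mutants, against -0.0056 ± 0.010 in 20d controls, and 0.011 ± 0.0069 in 3d mutants, against -0.022 ± 0.020 in 3d controls (log2, SD, n = 3). The genotypes overlapped at 20d and did not overlap at 3d, where the shift of 0.034 was 0.011 without the low-count filter. In 20d against 3d mutants the shift of -0.0043 turned to 0.0083 without the filter. The 3d, 20d and 50d brains of set 2 had 0.020 ± 0.0032, 0.0031 ± 0.0022 and -0.026 ± 0.010, with no overlap between ages. The shift at 20d against 3d was -0.017 in set 2, but 0.017 in set 1 controls, where the ages overlapped. The shift between 50d and 3d, -0.047 in log2, had the largest size of the 7 comparisons. At 50d against 3d, 21.5% of X-linked genes were called higher and 27.8% lower, against 26.9% and 24.3% of autosomal genes. In 20d against 3d controls of set 1 the X-linked shares were 13.1% and 12.7%, against 10.9% and 13.3%. These shifts and shares are a description and were not tested. The change of lncRNA:roX2 between 50d and 3d was -1.27, and a link to the X-linked genes was not tested.

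**Figure D3:**
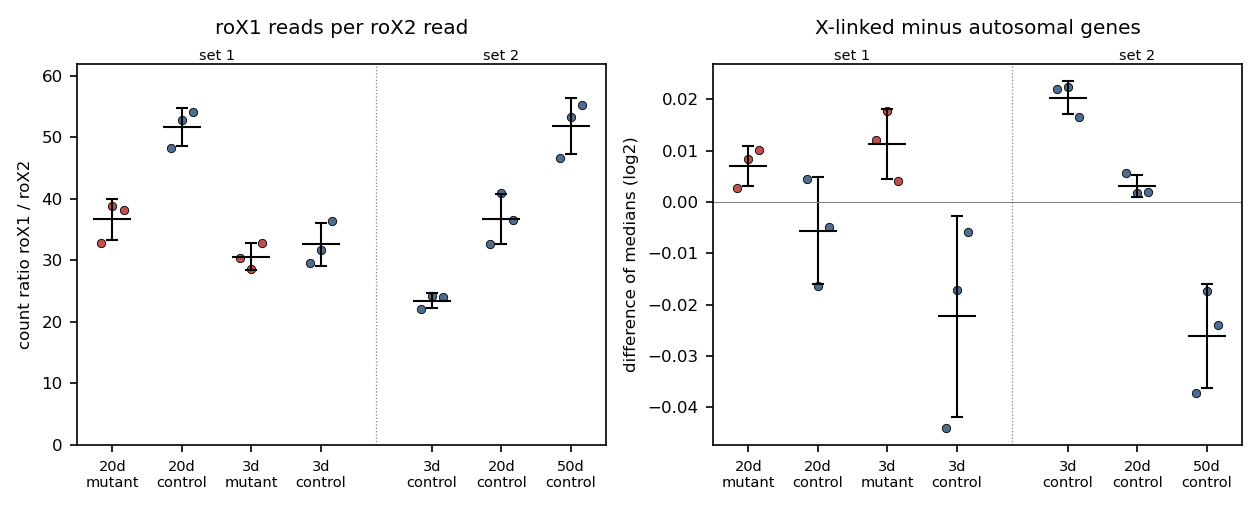
Left, counts of lncRNA:roX1 per count of lncRNA:roX2 (y axis, from 0) in each library, and right, the median deviation of X-linked genes minus that of autosomal genes (y axis, log2), by group (x axis), with the group mean and SD. The mean count ratio is 51.8 at 50d in set 2. The X-linked difference, on a log2 scale and taken from deviations around the mean of each set, is within 0.05 of 0 in every library. The 2 scales are unlike, and a link between them was not tested.

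The genes beside the roX genes had other patterns. CG11695 lies 259 bases to the left of lncRNA:roX2 and nod, a kinesin-like gene, 340 bases to its right. CG11695 had log2 fold changes of -0.04 to 0.17 and adjusted p-values of 0.090 or above in the 8 comparisons. nod moved against lncRNA:roX2 with age, at 7.58 to 8.35 CPM in 20d controls, against 4.06 to 5.41 CPM in 3d controls. Its log2 fold change was 0.71 in set 1 controls (SE 0.19, adjusted p = 0.014) and 1.27 at 50d against 3d (SE 0.12, adjusted p = 4.3e-06). It also rose in mutants, by 0.61 (SE 0.19, adjusted p = 0.019), where lncRNA:roX2 did not change beyond its error. Beside lncRNA:roX1, yin, 269 bases to its right, rose with age in both genotypes, by 0.43 in each (adjusted p = 0.0089 in controls and 0.0043 in mutants), and showed an interaction of -0.0074 (adjusted p = 0.98), while that of lncRNA:roX1 was 0.65. ec, which overlaps lncRNA:roX1, had a log2 fold change of -0.64 in mutants with age (SE 0.22, adjusted p = 0.030), where lncRNA:roX1 rose, and -0.65 in set 1 controls (SE 0.23, adjusted p = 0.053).

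Beside the protein members, ND-PDSW, a subunit gene of respiratory complex I that lies 45 bases to the right of msl-2, fell with age by 0.43 in log2 in mutants (SE 0.07, adjusted p = 0.00025) and by 0.52 in set 1 controls (SE 0.07, adjusted p = 0.00021), where msl-2 rose. Usp30, a deubiquitinase gene 147 bases to the right of mof, fell in mutants by 0.60 with age (SE 0.08, adjusted p = 3.2e-05), where mof rose. Both were chosen for these values after they were seen, and other neighbours moved with their member. CG3246, to the left of msl-2, rose with age by 1.03 in mutants (SE 0.24, adjusted p = 0.0060). It had 0.06 in set 1 controls (adjusted p = 0.88) and 1.17 at 50d against 3d (SE 0.13, adjusted p = 5.1e-05). CG10336, to the right of msl-1, rose by 0.62 in mutants (SE 0.17, adjusted p = 0.010), where msl-1 rose too. In set 1 controls CG10336 had -0.10 (adjusted p = 0.71). tos lies to the left of msl-1, form3 and Acbp2 beside msl-3, and BubR1 and Src42A beside mle. GAA1 lies to the left of mof, and dunk and CR12628 beside Clamp.

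**Figure D4:**
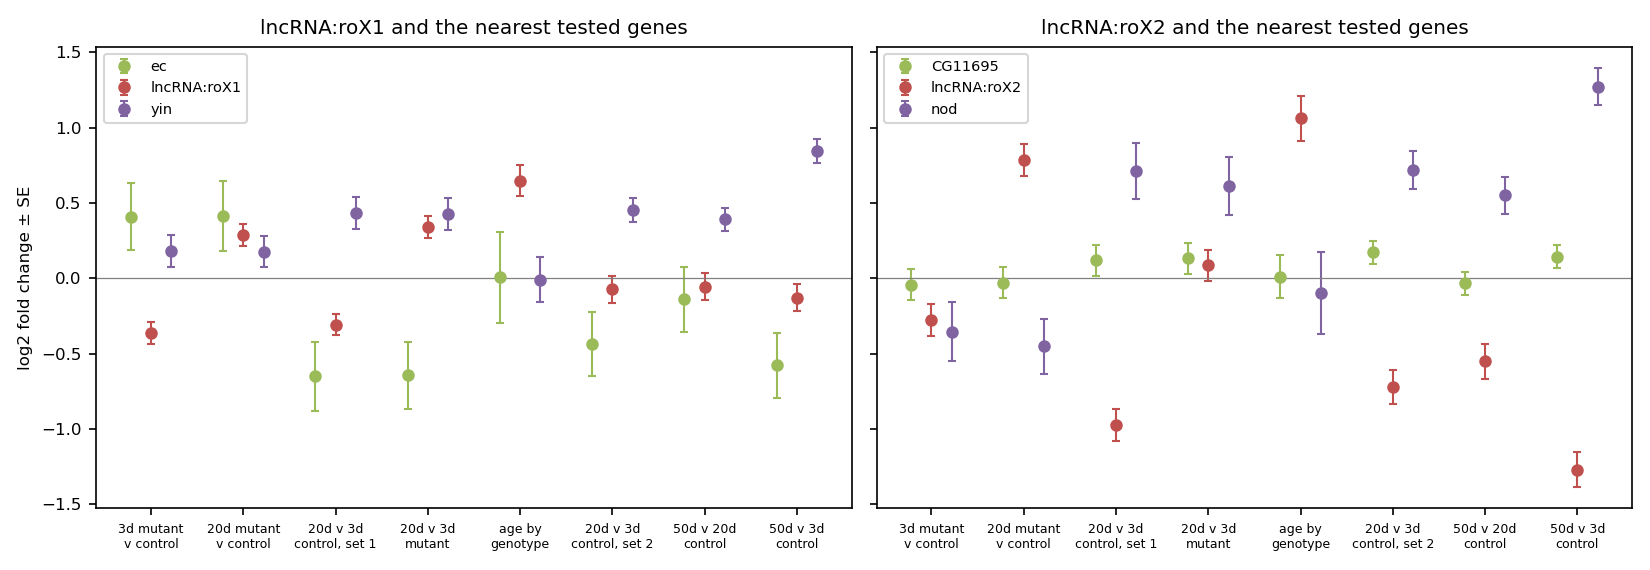
Fitted log2 fold change (y axis) with 1 SE of lncRNA:roX1 (left) and lncRNA:roX2 (right) and of the nearest tested gene on either side, in the 8 comparisons (x axis). nod lies at 1.27 and lncRNA:roX2 at -1.27 between 50d and 3d.

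msl-2 encodes the male-limited subunit that directs assembly of the complex, and its transcript was higher in older brains. It had 69.7, 73.3 and 71.8 CPM in 20d mutants, against 62.3, 61.0 and 64.1 CPM in 3d mutants. In controls it had 78.8, 69.7 and 73.5 CPM at 20d, against 58.2, 62.7 and 63.0 CPM at 3d. Ages did not overlap in either genotype, and the genotypes overlapped at each age. With age it rose by 0.20 in log2 in mutants (SE 0.06, adjusted p = 0.014) and by 0.27 in set 1 controls (SE 0.06, adjusted p = 0.0047). The set 2 difference was 0.14 at 20d (adjusted p = 0.072) and 0.17 at 50d against 3d (SE 0.06, adjusted p = 0.025). The mutant call was lost without 3d mutant replicate 2 (adjusted p = 0.057) or 20d mutant replicate 2 (0.051), and the 50d call without 3d replicate 2 (0.096) or 50d replicate 2 (0.10).

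msl-1, whose product bridges MSL-2 with MSL-3 and MOF, moved in the same direction. Mutants had 45.0 ± 2.99 CPM at 20d, against 38.4 ± 2.06 CPM at 3d, and controls 41.5 ± 1.92 CPM at 20d, against 35.9 ± 1.11 CPM at 3d (SD, n = 3). These were log2 fold changes of 0.23 in mutants (SE 0.07, adjusted p = 0.014) and 0.21 in set 1 controls (SE 0.07, adjusted p = 0.039). In set 2 its level was 33.2 ± 2.26 CPM at 3d, 36.0 ± 1.83 CPM at 20d and 39.3 ± 2.57 CPM at 50d, and it passed only at 50d against 3d (log2 fold change 0.25, SE 0.07, adjusted p = 0.014). The set 1 control call was lost when any one of its 6 libraries was left out (adjusted p 0.056 to 0.13), without the low-count filter (0.086) and when only these 2 groups were fitted (0.067). The mutant call was lost without 3d mutant replicate 3 (0.061) or 20d mutant replicate 2 (0.064), and the 50d call without 3d replicate 2 (0.076) or 50d replicate 3 (0.067).

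msl-3 encodes the chromodomain subunit that binds the methylated histone mark of active genes. It had 14.3 to 21.2 CPM over the 21 libraries and passed in 0 of the 8 comparisons by edgeR's test. At an unadjusted p under 0.05 the number was also 0, and so was that of DESeq2 at an adjusted p under 0.05. Its largest change was -0.17 at 20d against 3d in set 2 (SE 0.10, adjusted p = 0.19).

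mle encodes the RNA helicase that remodels roX RNAs for their binding by the MSL proteins. In set 1 mle too had an age effect that differed between the genotypes. It had 125, 123 and 116 CPM in 20d mutants, against 149, 142 and 138 CPM in 3d mutants, so every 20d mutant library was below the 3d ones. In controls it had 147, 126 and 140 CPM at 20d, against 127, 129 and 127 CPM at 3d, and these overlapped. Mutants fell by 0.24 in log2 with age (SE 0.06, adjusted p = 0.0062), set 1 controls had 0.11 (SE 0.06, adjusted p = 0.20), and their interaction was -0.35 (SE 0.09, adjusted p = 0.013). The sign of this interaction was opposite to that of both roX RNAs. Controls of set 2 fell by 0.22 at 20d against 3d (SE 0.05, adjusted p = 0.0064), close to the mutants, so the interaction rests on the controls of set 1. Neuronal marker sums were also lower at the later ages in mutants and in set 2. They were 4287 to 4404 CPM in 20d mutants, against 6152 to 6306 CPM in 3d mutants. In set 1 controls, where mle had 0.11, their median was 4360 CPM at 20d and 4662 CPM at 3d. These control ranges, 4020 to 4416 CPM at 20d and 4231 to 4707 CPM at 3d, overlapped, as did those of 20d mutants and 20d controls. In set 2 the sums were 4848 to 5250 CPM at 3d, 3425 to 3764 CPM at 20d and 3267 to 3643 CPM at 50d. Their part in the level of mle was not tested.

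Between genotypes at 20d, mle was lower in mutants, at -0.18 in log2 (SE 0.06, adjusted p = 0.032). This call was lost without the low-count filter (adjusted p = 0.055), when only these 2 groups were fitted (0.096), and without 20d control replicate 1 (adjusted p = 0.13) or replicate 3 (0.095), or 20d mutant replicate 2 (0.065) or replicate 3 (0.13). At 3d the mutants were higher by 0.16 (SE 0.06), which did not pass (adjusted p = 0.057).

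The age effect of mle in controls differed between the 2 experiments. The set 2 libraries had 137, 140 and 138 CPM at 3d, 112, 118 and 124 CPM at 20d and 118, 125 and 121 CPM at 50d. The later ages were below 3d in every library, with log2 fold changes of -0.22 at 20d (SE 0.05, adjusted p = 0.0064) and -0.19 at 50d (SE 0.05, adjusted p = 0.013). The set 2 effect at 20d minus that of set 1 was -0.34 in log2 (SE 0.08, adjusted p = 0.016), in a fit of all 21 libraries where 7.76% of 10367 genes passed. Under library totals alone the fall of mle passed neither in mutants (-0.10, adjusted p = 0.33) nor in set 2 at 20d (-0.12, adjusted p = 0.12) or 50d (-0.04, adjusted p = 0.62), the interaction was -0.33 (adjusted p = 0.058), and the rise in set 1 controls passed (0.24, adjusted p = 0.035).

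mof, the gene of the acetyltransferase that modifies histone H4 on the male X and also works in the NSL complex in both sexes, was called in one comparison. It had 12.0, 12.2 and 10.9 CPM in 20d mutants, against 9.05, 8.33 and 7.55 CPM in 3d mutants, without overlap. The rise was 0.49 in log2 (SE 0.12, adjusted p = 0.0033), the largest of any protein member. For set 1 controls it was 0.30 (SE 0.11, adjusted p = 0.066), and it passed without 20d control replicate 2 (0.38, adjusted p = 0.034) but was 0.19 without 20d control replicate 1 (adjusted p = 0.26). Set 2 gave -0.15 at 20d (adjusted p = 0.30) and 0.10 at 50d (adjusted p = 0.48), both against 3d.

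Clamp, the zinc finger gene whose product marks the entry sites of the complex, had 71.2, 67.9 and 67.7 CPM in 3d mutants, against 73.5, 78.5 and 75.8 CPM in 3d controls. The groups did not overlap, and the log2 difference was -0.14 (SE 0.05, adjusted p = 0.045). The call was lost with any library but 3d control replicate 1 left out (adjusted p = 0.15 without 3d control replicate 2, 0.092 without 3d control replicate 3, and 0.056, 0.13 and 0.13 without mutant replicates 1, 2 and 3). It also failed in DESeq2 (adjusted p = 0.088), with RLE factors (0.066), without the low-count filter (0.12) and when only these 2 groups were fitted (0.052). No other comparison called Clamp, which had 59.8 to 78.5 CPM over the 21 libraries.

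**Figure D5:**
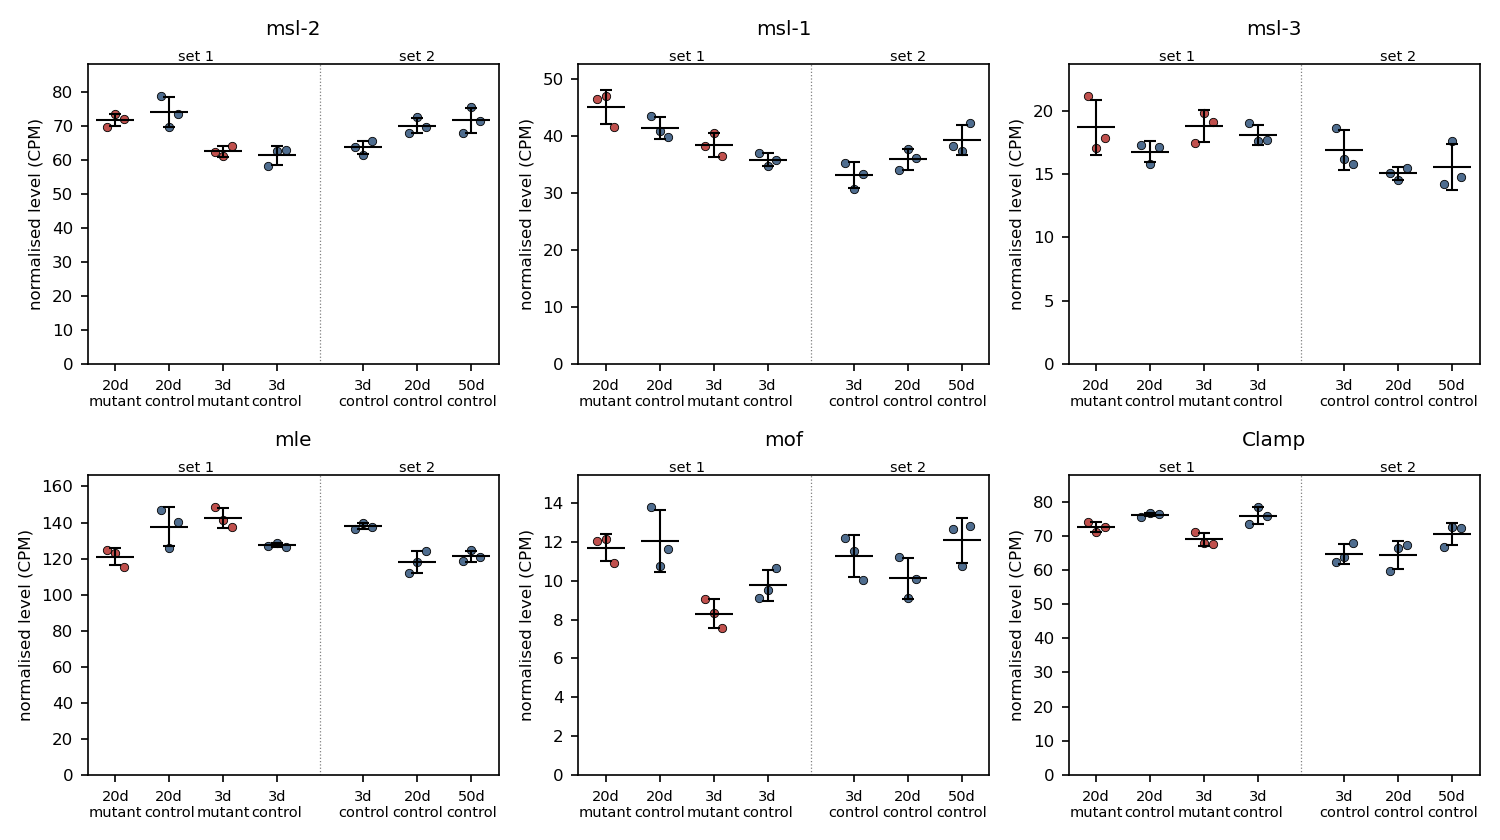
Normalised level in CPM (y axis, from 0) of the 6 protein members in each library (points), by group (x axis), with the group mean and SD; mutants are red and controls blue, and the dotted line parts the sets. msl-2 and msl-1 are higher in the older brains of set 1, and mle is lower in 20d than in 3d mutants, 116 to 125 CPM against 138 to 149 CPM.

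Genes that work with the complex were described from 3 lists, all of whose genes were tested. The NSL complex, which shares MOF and acts at housekeeping gene promoters, had 6 listed genes. In 20d against 3d brains, 2 of 6 rose in mutants, 2 of 6 in set 1 controls and 1 of 6 in set 2, where 22.8%, 11.3% and 19.3% of all genes rose. wds, a WD-repeat subunit, rose most, with 22.6 ± 1.25 CPM at 20d and 17.0 ± 0.65 CPM at 3d in set 2 (SD, n = 3, log2 fold change 0.41, adjusted p = 0.00084). MBD-R2 (0.25, adjusted p = 0.029) and nsl1 (0.24, adjusted p = 0.012) were the 2 that rose in set 1 controls. Neither was called at 20d against 3d in set 2, where MBD-R2 had -3.1e-05 (adjusted p = 0.9997) and nsl1 0.16 (adjusted p = 0.051). The list's median log2 fold change was 0.18 in mutants and 0.06 in set 1 controls, where all tested genes had 0.02 and 0.0041.

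Of 11 chromatin and nuclear pore factors linked to the male X, 7 rose in mutants with age, 3 in set 1 controls and 6 at 20d in set 2, where 22.8%, 11.3% and 19.3% of all genes rose. Between genotypes, 4 of 11 were lower in mutants at 20d and 4 at 3d, where 15.4% and 15.0% of all genes were lower, with list medians of -0.07 and -0.19, against -0.0066 and -0.02 over all genes. Top2, topoisomerase 2, had 61.8 ± 2.49 CPM in 20d mutants and 86.1 ± 1.98 CPM in 20d controls (SD, n = 3, log2 fold change -0.48, adjusted p = 4.8e-05). The gene of the heterochromatin protein HP1a had 62.9 ± 2.66 CPM in 3d mutants and 83.2 ± 3.07 CPM in 3d controls (log2 fold change -0.40, adjusted p = 9.0e-05). Pof, whose product coats the fourth chromosome, had 13.0 ± 0.96 CPM in 3d mutants and 17.3 ± 1.26 CPM in 3d controls (log2 fold change -0.41, adjusted p = 0.0061).

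Of 12 genes of sex determination and of the control of msl-2, 4 rose and 2 fell with age in mutants, and 4 rose and 1 fell at 50d against 3d. Of all genes, 22.8% rose and 23.2% fell in mutants, and 25.9% rose and 24.9% fell at 50d. dsx, the sex-specific transcription factor, had 23.3 ± 5.05 CPM in 20d mutants and 13.3 ± 0.94 CPM in 3d mutants (SD, n = 3, log2 fold change 0.80, adjusted p = 0.00042). Unr, which represses translation of msl-2 in females with Sxl and aids roX association in males, had 1198 ± 27.5 CPM at 50d, against 788 ± 38.1 CPM at 3d (log2 fold change 0.61, adjusted p = 6.1e-05). snf, a splicing factor needed for Sxl autoregulation, had 34.3 ± 2.17 CPM at 50d, against 46.3 ± 1.36 CPM at 3d (log2 fold change -0.43, adjusted p = 0.00011).

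Likeness between genes was described by Pearson's r of log2 CPM over the 21 libraries, after the mean of each set was subtracted, among 9896 genes tested in both sets. These libraries share groups and scaling, so r is a description. The genes most like lncRNA:roX2 were CG3337 (0.92) and mRpL12 (0.91), a mitochondrial ribosomal protein gene. Those most like lncRNA:roX1 were eIF3m (0.90), a translation initiation factor gene, and lncRNA:noe (0.87). The 2 roX RNAs had an r of 0.58 with each other, below these values.

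For mle the closest were Neto (0.93) and mAChR-B (0.93), which encode a glutamate receptor auxiliary protein and a muscarinic receptor. IA-2 (0.91) and velo (0.91) were closest to msl-2, and mei-P26 (0.89) and tow (0.88) to msl-1. Clamp was nearest to Ugt316A1 (0.83) and Hrb27C (0.79), mof to SF1 (0.82) and Cfp1 (0.79), and msl-3 to CG15912 (0.77) and Fem-1 (0.76). The values of mof came mainly from set 1, with 0.91 for each gene there, against 0.48 for SF1 and 0.31 for Cfp1 in set 2. No member was among the 2 genes most like another. Among the members the highest r was 0.71, between msl-1 and msl-2, and the lowest was -0.68, between lncRNA:roX2 and msl-2.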

How the data were processed

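Stranded libraries of polyA RNA came from pools of 20 male brains. The authors aligned reads with HISAT2, counted them per gene with HTSeq and tested them with DESeq2, as the labels and methods state. The methods name different FlyBase releases for genome and annotation. The authors deposited one table of raw counts, without normalization. Its 21 columns were matched to libraries by name, and each library's group came from the sample labels. Of 17612 genes, 17547 had an entry in Ensembl release 115 (BDGP6.54), from which symbols, exon lengths and positions were taken. The deposited table has no coordinates.

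edgeR 4.0.16 (R 4.3.3) gave TMM-scaled CPM. Genes kept by filterByExpr (minimum count 10), 9961 in set 1 and 10525 in set 2, were tested in one quasi-likelihood fit of group means per set, with Benjamini-Hochberg adjustment over all of them and a threshold of 0.05. The sets were normalised separately, so levels were not compared between them. Standard errors were derived as the size of the fold change divided by the square root of F. The biological coefficient of variation was 13.0% in set 1 and 12.9% in set 2. Separate cultures behind the replicates are not described beyond pools of brains. The fits were tested on simulated counts. Exact tests used scipy 1.17.1.

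Alternatives were DESeq2 1.42.0, RLE factors, no filter, a minimum of 10 counts in all libraries of a set, a fit restricted to both groups of a comparison, a block for the replicate number and leaving out single replicates. Library totals without TMM, and a fit of all 21 libraries for the difference between sets, were added after seeing the data. The members and lists were chosen with earlier results of these data known. Named genes were the 8 members, up to 3 called genes with the largest change from each list, the 2 genes most like each member and its nearest tested neighbours. Searches for sequence motifs were not run, since no genome sequence was used here.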

Additional observations from a re-analysis of the deposited data

Results flagged for a closer look

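A difference between groups in the same contrast, tested directly, marked 3 members. The change between 20d and 3d differed between mutants and controls by 0.65 in log2 for lncRNA:roX1 (SE 0.10, adjusted p = 0.00098), by 1.06 for lncRNA:roX2 (SE 0.15, adjusted p = 0.00071) and by -0.35 for mle (SE 0.09, adjusted p = 0.013). The calls of both roX RNAs held without any one of the 12 libraries, and so did that of mle, whose adjusted p reached 0.044. For mle the control age effect also differed between the experiments, by -0.34 (set 2 minus set 1, adjusted p = 0.016). It was -0.22 in set 2 controls and 0.11 in set 1 controls, beside -0.24 in mutants.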

How the results depend on the processing

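Without the low-count filter the count of members called was 1 in place of 2 in 3d mutants against 3d controls (Clamp lost). It was 2 in place of 3 in 20d mutants against 20d controls (mle lost) and 3 in place of 4 in set 1 controls with age (msl-1 lost). These 3 calls were also lost when only the groups compared were fitted. Leaving out single replicates gave 1 to 2 in 3d mutants against 3d controls and 3 to 5 in 20d against 3d mutants (3 without 20d mutant replicate 2). It gave 0 to 1 at 50d against 20d (0 without 20d replicate 1 or 50d replicate 3) and 2 to 4 at 50d against 3d (2 without 3d replicate 2). The X-linked minus autosomal shift without the filter was 0.011 in 3d mutants against 3d controls (0.034 with it), 0.0083 in 20d against 3d mutants (-0.0043), -0.020 at 20d against 3d in set 2 (-0.017) and -0.020 at 50d against 20d (-0.029). From fitted fold changes it was 0.0038 in 20d mutants against 20d controls (0.013 from library medians), 0.0070 in 20d against 3d mutants and -0.0090 at 20d against 3d in set 2, and leaving out replicates gave 0.010 to 0.021 in the first and -0.021 to -0.014 in the last. The other sign changes were in changes of members that had not passed the test, and the cause was not tested. For Clamp at 20d against 3d they were -0.0041 (no filter), -0.0022 (only the pair of groups fitted) and -0.018 to 0.028 (replicates left out) in set 1 controls, and 0.0022 (no filter), 0.013 (10 counts in every library), 0.013 (the pair of groups alone), 0.10 (library totals) and -0.033 to 0.050 (replicates left out) in set 2. For msl-3 in 20d against 3d mutants they were 0.0028 (the pair of groups alone), 0.13 (library totals) and -0.11 to 0.058 (replicates left out). Library totals also turned msl-2 in 3d mutants against controls (-0.022), msl-3 at 20d against 3d in set 1 controls (0.015), lncRNA:roX1 at 20d (0.033) and 50d (0.023) against 3d in set 2, and msl-3 at 50d against 3d (0.028). Leaving out replicates gave -0.0084 to 0.048 for msl-2 in 3d mutants, -0.12 to 0.067 for mof in 20d mutants, -0.015 to 0.080 for the interaction of msl-1, -0.11 to 0.023 for lncRNA:roX1 at 20d against 3d in set 2 (0.023 without 3d replicate 1), and -0.0075 to 0.068 for msl-2 and -0.054 to 0.10 for msl-3 at 50d against 20d. Library totals made further calls with age, for mle (0.24) and mof (0.43) in set 1 controls, msl-1 (0.22) and msl-2 (0.24) at 20d in set 2, and Clamp in mutants (0.22) and at 50d against 3d (0.28). mle passed in 3d mutants against 3d controls with RLE factors (adjusted p = 0.044), DESeq2 (0.041) and the pair of groups alone (0.045). Deviations of same-numbered replicates had correlations of -0.16 to 0.33, with at least 1 pair under 0.1 in each comparison, so the numbers were not taken as pairs. Between 50d and 20d they were 0.091 to 0.33 and all 3 libraries were most like their own number, a hint from the data and not from the design. With the replicate number as a block the members called stayed at 2 in 3d mutants against 3d controls, where lncRNA:roX2 passed (adjusted p = 0.0078) and Clamp did not (0.063), and no other call changed. Counts of mof were the lowest of any member, 126 to 497.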

Other observations

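The fourth chromosome, a small autosome that is coated by the product of Pof, had larger median differences between genotypes than the X did. Of its 98 tested genes, 34 were higher and 6 were lower in 20d mutants than in 20d controls, with a median log2 fold change of 0.09, and 24 were higher and 5 lower in 3d mutants than in 3d controls, with a median of 0.08. Of all genes, 16.6% were higher and 15.4% lower at 20d, and 16.5% and 15.0% at 3d. Of X-linked genes, 15.6% were higher and 13.5% lower at 20d, and 17.9% and 12.2% at 3d, with medians of -0.0049 and 0.011. In set 2, 9 of 101 genes of the fourth chromosome were higher and 36 lower at 20d than at 3d, with a median of -0.13, where 19.3% of all genes were higher and 19.9% lower. In set 1 controls 13 were higher and 20 lower, with a median of -0.0074, where 11.3% of all genes were higher and 13.3% lower. This arm was picked after its values were seen and was not tested as a group.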
